A study of Mus musculus with 63 samples.

Results

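SNARE proteins and the Sec1/Munc18 and syntaxin-binding (Stxbp) proteins that act on them carry out membrane fusion, and the transcripts of 43 genes of this machinery were followed through all libraries. The genes are the protein-coding rows of the deposited annotation whose symbols belong to the syntaxin (Stx), syntaxin-binding protein (Stxbp), synaptobrevin (Vamp), Vti1, Gosr, Sec22, Bet1 and Ykt6 families or are Snap23, Snap25, Snap29 or Snap47. They were picked by symbol and not by their values, out of 55291 gene symbols, of which 21833 were protein-coding. Another 2 symbols that fitted the pattern are processed pseudogenes and were left out. SNARE genes named otherwise, such as Use1 and Bnip1, are given with the pathway lists below.

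RNA was sequenced from organotypic entorhino-hippocampal tissue cultures, which were prepared from mice at postnatal day 3 to 5 and kept in vitro for at least 18 days. The entorhinal cortex lesion (ECL) cuts the entorhinal input to the hippocampus, and cultures were taken 3 days later or left without a lesion as controls. In the regional experiment (39 libraries), the dentate gyrus (DG) or the CA3 area of a single culture gave the RNA of each library, made with a low-input kit. In the synaptopodin co-immunoprecipitation (Synpo-coIP, 24 libraries), an antibody against synaptopodin pulled the protein and the RNA held with it out of a lysate of 6 pooled cultures containing cycloheximide, and an aliquot of the lysate was sequenced as input.

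Wildtype (WT) cultures were Synpo+/+ of the C57BL/6J strain, and synaptopodin-deficient cultures were B6.129-Synpotm1Mndl/Dllr Synpo-/-. The regional groups were 2 control and 3 ECL libraries of WT CA3, 4 control and 7 ECL libraries of WT DG, 6 control and 6 ECL libraries of Synpo-/- CA3, and 7 control and 4 ECL libraries of Synpo-/- DG. The Synpo-coIP groups were 5 control and 5 ECL replicates of WT and 2 replicates of Synpo-/-, each with coIP and input, and the labels give no lesion state for the Synpo-/- replicates. Animals of either sex were used, the cultures hold neurons and glia of both regions, and every value is a mean over the cells of a piece of tissue. Fewer cells of a type and less RNA per cell therefore cannot be told apart. Replicates were separate cultures or pools of cultures, and p-values measure the spread between them.

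In a fusion event, a SNARE on the vesicle (an R-SNARE such as the synaptobrevin Vamp2) zips together with SNAREs on the target membrane (Q-SNAREs such as the syntaxin Stx1a and the palmitoylated Snap25) into a bundle that draws the membranes together. Munc18 proteins, such as those of Stxbp2 and Stxbp3, clasp syntaxins and guide this assembly, while tomosyns (Stxbp5, Stxbp5l) and amisyn (Stxbp6) carry SNARE-like domains and can hold syntaxin and Snap25 in unproductive complexes. Snap25, Stx1a and Vamp2 serve transmitter release, and most other members serve fusion at the endoplasmic reticulum, Golgi apparatus, endosomes, lysosomes and the plasma membrane of all cells.

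Promoters are shown for 4 members that the results turn on, namely Stxbp6 (the widest difference between regions), Vamp8 and Vamp5 (neighbours that rose after lesion in DG) and Vti1b (the most variable member). They are RefSeq sequences of GRCm38.p6 that run 5′ to 3′ on the minus strand from 250 bases before to 50 bases after the annotated start. The positions are chr12:45074434-45074733 for Stxbp6, chr6:72390618-72390917 for Vamp8, chr6:72380419-72380718 for Vamp5 and chr12:79172409-79172708 for Vti1b. Capitals mark matches, on either strand, to the GC box GGGCGG, the cyclic AMP response element TGACGTCA, the PU.1 core GAGGAA and the E-box CACGTG, and matches can overlap.
Stxbp6: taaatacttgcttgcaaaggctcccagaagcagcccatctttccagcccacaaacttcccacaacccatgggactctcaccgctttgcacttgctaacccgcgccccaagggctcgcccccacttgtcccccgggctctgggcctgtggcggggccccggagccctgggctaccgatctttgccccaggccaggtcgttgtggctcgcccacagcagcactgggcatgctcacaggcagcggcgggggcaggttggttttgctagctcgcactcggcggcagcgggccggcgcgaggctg
Vamp8: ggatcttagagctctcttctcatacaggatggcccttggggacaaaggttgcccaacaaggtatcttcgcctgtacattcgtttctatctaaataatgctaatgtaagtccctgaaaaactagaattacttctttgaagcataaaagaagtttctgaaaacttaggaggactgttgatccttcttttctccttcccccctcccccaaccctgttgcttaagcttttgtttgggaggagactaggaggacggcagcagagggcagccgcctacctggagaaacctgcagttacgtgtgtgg
Vamp5: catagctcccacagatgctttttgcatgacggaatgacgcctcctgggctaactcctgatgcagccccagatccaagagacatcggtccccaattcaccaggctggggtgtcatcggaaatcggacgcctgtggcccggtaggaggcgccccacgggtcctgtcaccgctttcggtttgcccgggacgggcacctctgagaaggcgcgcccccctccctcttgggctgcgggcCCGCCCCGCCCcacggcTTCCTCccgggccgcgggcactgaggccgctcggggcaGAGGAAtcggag
Vti1b: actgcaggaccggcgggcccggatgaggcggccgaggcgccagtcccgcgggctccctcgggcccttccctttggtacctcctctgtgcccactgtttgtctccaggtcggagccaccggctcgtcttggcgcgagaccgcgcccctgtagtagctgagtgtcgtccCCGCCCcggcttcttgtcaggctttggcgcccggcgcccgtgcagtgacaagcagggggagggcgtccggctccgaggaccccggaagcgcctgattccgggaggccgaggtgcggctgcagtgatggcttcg

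A promoter was found for 38 of the 43 members (44 promoters), and none for Snap25, Vamp3 and Vamp2 among others. The GC box was present in 65.9% of the member promoters and in 35.7% of 32851 promoters of the same length. The PU.1 core was present in 29.5% against 28.3%, the E-box in 9.09% against 7.15% and the cyclic AMP response element in 4.55% against 1.79%. Vamp5 held both GC boxes and PU.1 cores, Vti1b held a GC box, and the windows of Vamp8 and Stxbp6 held none of these letters. Each match is a description of letters and not a binding site.

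Library totals ranged from 11601154 to 53682143 counts. Levels are given as CPM, counts scaled to the TMM-adjusted library size, fold changes are log2 values from edgeR's quasi-likelihood test, and a gene was called at a Benjamini-Hochberg adjusted p under 0.05 over all genes tested in a comparison. Synpo transcript stood at 40.94 to 69.27 CPM in Synpo-/- DG control and at 19.06 to 24.44 CPM in WT DG control, so counts of the deleted gene do not bear out the genotype labels. Whether the allele leaves a transcript outside the deleted part could not be checked, so these counts do not decide whether the labels are right. Synpo-/- below stands for the libraries so labelled. The granule cell transcription factor Prox1 stood at 120.1 to 216.5 CPM in the DG libraries other than WT ECL replicate 5, which had 15.53 CPM, the level of CA3 (12.67 to 44.01 CPM). In the library labelled Synpo-/- CA3 ECL replicate 6 the members summed to 4042 CPM, against 7146 to 8064 CPM in the other libraries of its group. Synpo-/- CA3 control replicate 1 had the most Prox1 of the CA3 libraries (44.01 CPM). The 3 libraries were kept, and results that rest on them are also given without them.

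Members differed widely in abundance. Per kilobase of exon, Snap25 was the highest member in the 3 control groups of WT, with 535.6 ± 73.29 CPM per kb (mean ± SD, n = 2) in CA3, 293.1 ± 58.74 (n = 4) in DG and 858.2 ± 89.45 (n = 5) in the input. Vti1b, which pairs with endosomal syntaxins, and Snap47, a Snap25 relative without membrane anchor sites, held the next places in each group. In DG Vti1b had 72.12 ± 30.97 CPM per kb and Snap47 58.9 ± 9.558, and these neighbours did not differ beyond their spread. Vamp2 (27.96 ± 3.881 CPM per kb) and Vamp4 (26.52 ± 4.423) lay close together in DG, within their spread. Stx11 and Stx19, syntaxins known from immune and epithelial cells, were the lowest members in DG at 0.2185 and 1.584 CPM per kb.

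Because strand was not used in counting, reads over exons shared with an opposite gene cannot be assigned. Exons of 10 members overlap those of another gene, and the overlap is above 10% of exon bases for Stx18 (32.3%, with Gm42858 and the neuronal endosome gene Nsg1), Bet1l (19%), Vti1b (17.7%, with Arg2 on the other strand) and Snap47 (11.6%, with Jmjd4).

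The comparison of coIP with input asks which transcripts are held with synaptopodin, and the same precipitation was made in the replicates labelled Synpo-/-. Most SNARE transcripts were lower in coIP than in the input in all 3 sets of libraries. In WT control 24 of 42 members tested were lower and 5 higher, where 25.5% of all 18222 genes tested were lower and 29.6% higher. In WT ECL 24 of 42 were lower and 6 higher (27.8% and 30.5% of all genes), and in Synpo-/- 25 of 43 were lower and 0 higher (16.4% and 15% of all genes). The median log2 fold change of the members was -0.47, -0.56 and -0.54 in the 3 sets, where that of all genes was 0.04, 0.02 and 0.02.

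The lower transcripts lay mostly in the roles of vesicle and compartment SNAREs. All 8 R-SNAREs of vesicles, lysosomes and Golgi (Vamp1, Vamp2, Vamp3, Vamp4, Vamp5, Vamp8, Ykt6 and Sec22b) were lower in each set, with medians of -0.75, -0.82 and -0.79. The Snap25 family had 4, 4 and 3 of 4 members lower, the SNAREs of the endoplasmic reticulum and Golgi 5, 6 and 4 of 7, and the endosomal and trans-Golgi Q-SNAREs 5, 4 and 6 of 7. Of the plasma membrane syntaxins 0 of 6 tested were lower in each WT set and 1 of 7 in Synpo-/-. The sets share no library, and 21 members were lower in all of them. The share of all genes lower in all 3 sets was not counted, so this number has no background beside it.

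Snap25 had 6772, 5930, 5847, 5345 and 5244 CPM in the 5 WT control inputs and 3276, 3342, 2364, 2165 and 2448 CPM in the matching coIP libraries. Every coIP library was below every input, and the log2 fold change was -1.08 (SE 0.127, adjusted p = 6.56e-06). The change was -1.20 (SE 0.126, adjusted p = 5.28e-06) in WT ECL and -0.75 (SE 0.143, adjusted p = 0.00233) in Synpo-/-, where the inputs had 5268 and 4761 CPM and the coIP libraries 3300 and 2815 CPM.

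Stx7, a syntaxin of late endosomes, had 335.1, 296.2, 318.8, 293.8 and 301.9 CPM in the WT control inputs and 163.4, 177.8, 134.6, 147 and 153 CPM in coIP. The groups did not overlap (log2 fold change -0.98, SE 0.0871, adjusted p = 7.75e-07), and it fell by 1.07 in WT ECL (adjusted p = 3.53e-06) and by 0.98 in Synpo-/- (adjusted p = 0.000384). Sec22b, an R-SNARE of the early secretory pathway, fell by 1.06 (SE 0.104, adjusted p = 1.45e-06), from 196.1 to 262.5 CPM in the inputs to 89.67 to 120.6 CPM in coIP. Bet1, its Golgi partner, fell by 1.04 in WT control (SE 0.105, adjusted p = 1.73e-06).

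Sec22a and Stx18, both of the endoplasmic reticulum, were among the members with the smallest p in WT ECL, with log2 fold changes of -1.03 (SE 0.0999, adjusted p = 3.40e-06) and -0.90 (SE 0.0937, adjusted p = 4.91e-06). Gosr2, a Golgi SNARE, led the Synpo-/- set at -1.27 (SE 0.139, adjusted p = 0.000201). It had 186.7 and 183.5 CPM in the Synpo-/- inputs and 85.42 and 72.07 CPM in coIP, against -0.71 (adjusted p = 7.28e-06) in WT control. Whether the change in Gosr2 differs between genotypes did not pass the test across genes (difference -0.50, SE 0.157, adjusted p = 0.519).

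Vamp2, the synaptobrevin of synaptic vesicles, had 112.2, 116.7, 93.69, 104.8 and 114.5 CPM in the WT control inputs and 76.86, 71.73, 54, 63.44 and 66.59 CPM in coIP. All coIP values lay below all inputs (log2 fold change -0.68, SE 0.103, adjusted p = 5.85e-05), and the change was -0.69 (SE 0.0929, adjusted p = 3.17e-05) in WT ECL and -0.64 (SE 0.177, adjusted p = 0.0157) in Synpo-/-. The Synpo-/- call was lost without input replicate 1 or coIP replicate 2 (adjusted p up to 0.0814).

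Stx1a, a partner of Vamp2 in release, was called in Synpo-/- alone (-1.01, SE 0.171, adjusted p = 0.00117), from 56.13 and 65.21 CPM to 25.91 and 35.68 CPM, and had -0.39 (adjusted p = 0.198) and -0.44 (adjusted p = 0.196) in the WT sets. The call was lost with all groups in one fit (adjusted p = 0.112). For Stx1a the WT inputs spread from 26.06 to 106.3 CPM, and the difference between the genotypes did not pass the test (-0.57, SE 0.435, adjusted p = 0.831).

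Higher in coIP in both WT sets were the tomosyns Stxbp5 and Stxbp5l, the Munc18 gene Stxbp2 and the syntaxin Stx19. Stxbp5 had 61.51, 59.07, 69.76, 67.55 and 56.01 CPM in the WT control inputs and 87.4, 91.85, 92.16, 81.48 and 84.46 CPM in coIP, with no overlap (0.50, SE 0.0871, adjusted p = 0.000227). In WT ECL it was 0.59 (SE 0.0925, adjusted p = 0.000107). With the trend of gene length removed the values for Stxbp5 turned to -0.0591 (adjusted p = 0.597) and -0.00201 (adjusted p = 0.988), and the other tomosyn Stxbp5l kept 0.08 (adjusted p = 0.531) in WT control and 0.30 (adjusted p = 0.0448) in WT ECL.

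Stxbp2 was 0.52 higher (SE 0.116, adjusted p = 0.0015) in WT control and 0.56 higher (SE 0.190, adjusted p = 0.0211) in WT ECL, a call lost without input replicate 3 or coIP replicate 2 or 4 (adjusted p up to 0.0622), though the groups overlapped in both (57.15 to 86.47 CPM in coIP and 43.98 to 59.45 CPM in input of WT control). Stx19 rose by 1.22 (SE 0.342, adjusted p = 0.00739) and 1.54 (SE 0.394, adjusted p = 0.00407) from a level under 1 CPM in the WT inputs. Stx2, a plasma membrane syntaxin, was 0.46 higher in WT control (adjusted p = 0.0123), and Stx6, a trans-Golgi syntaxin, 0.27 higher in WT ECL (adjusted p = 0.0303). The call of Stx6 held in 10 of 18 fits and was lost without input replicate 1, 3 or 4 or coIP replicate 2 or 5, without a filter and with the length trend removed, where it turned to -0.117. None of these 6 was called in Synpo-/-, which had 2 coIP and 2 input libraries. There 15% of all genes were higher, against 29.6% and 30.5% in the WT sets. A difference between genotypes cannot be read from the missing calls.

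**Figure D1:**
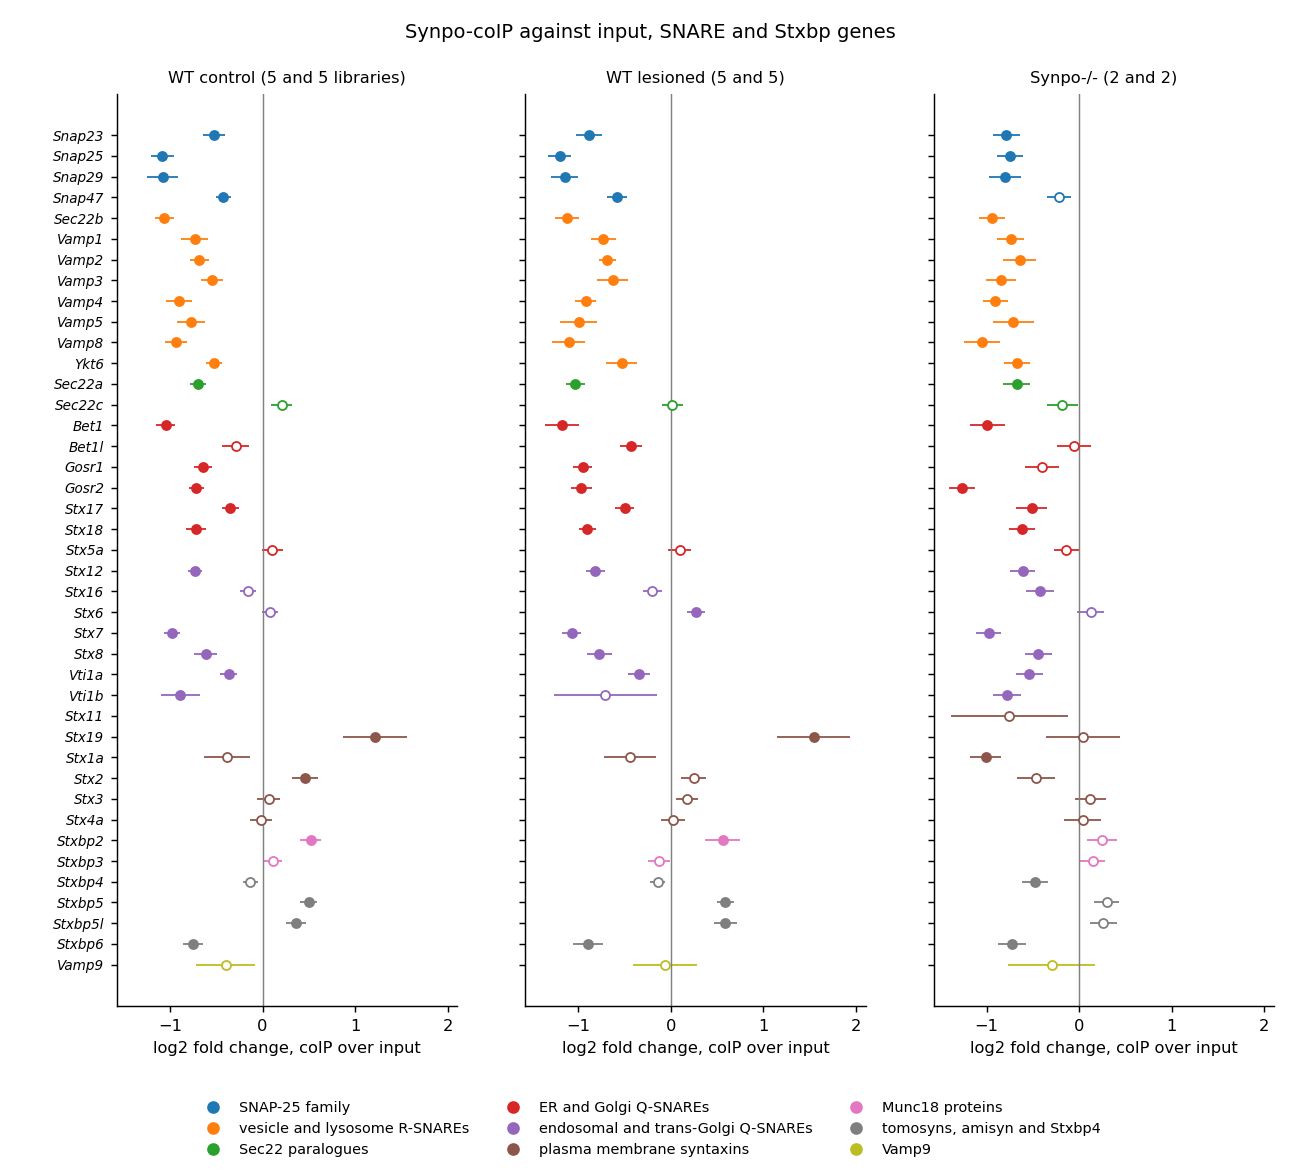
Log2 fold change of coIP against input for members (rows, by role) with its standard error in WT control, WT ECL and Synpo-/- (panels), filled points marking calls at an adjusted p under 0.05. The R-SNAREs lie left of 0 in all panels, with role medians of -0.75, -0.82 and -0.79, while Stxbp5 and Stx19 lie right of 0 in both WT panels, at 0.50 and 1.22 in WT control.

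The interaction of genotype with fraction, tested in edgeR, called 0 members (2 at an unadjusted p under 0.05, Stx2 and Gosr2, or 4.65% beside 7.33% of all genes, and 0 by DESeq2), and it called 0% of all 20621 genes. The interaction of lesion with fraction in WT called 0 members as well (1 unadjusted, Sec22a, or 2.38% beside 2.22% of all genes, and 0 by DESeq2), again with 0% of 19581 genes. Across the members the log2 fold change rose with exon length, with Spearman's rho of 0.296, 0.253 and 0.355 (n = 42, 42 and 43 genes that share the libraries). Removing the length trend left 24, 21 and 23 members lower, and the shares of all genes lower in those fits are not given. Of 10 microglia markers 3, 7 and 5 were lower and 1 higher in coIP in the 3 sets, neuron markers were higher for 2 of 6 in each and lower for 1 in WT ECL, and their part in the values of the members was not tested.

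**Figure D2:**
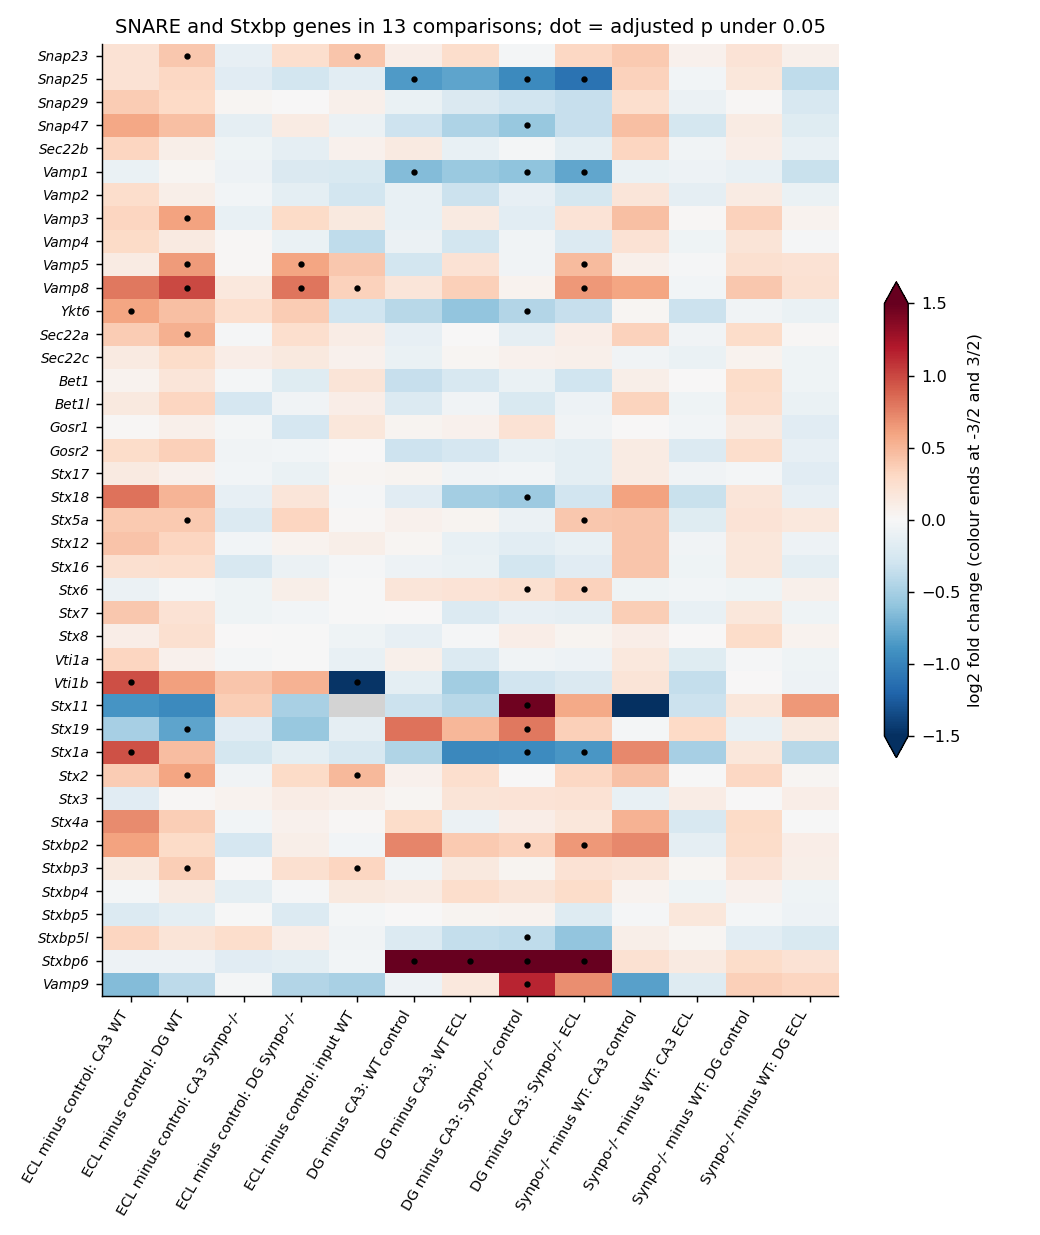
Log2 fold changes (colour, ending at -1.5 and 1.5) of members (rows, by role) in the comparisons of lesion, region and genotype (columns), with a dot for an adjusted p under 0.05 and grey where a member was not tested. Stxbp6 is called in all 4 region columns, Vamp8 in 3 of 5 lesion columns, and the genotype columns hold 0 calls.

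The regions were compared as DG minus CA3 within a genotype and lesion state, in 4 sets that share no library, which shows how the granule cell area differs from the pyramidal cell area. Stxbp6 was higher in DG in all 4, while Snap25 and Vamp1, a synaptobrevin of fast-firing neurons, were lower in DG in 3 of 4 and Stx1a in 2 of 4, and the WT control calls of Snap25 and Vamp1 were lost without CA3 replicate 2. In WT control 1 member was higher and 2 lower (2.63% and 2.75% of all genes). In WT ECL 1 was higher and 0 lower (1.54% and 0.508%), in Synpo-/- control 6 were higher and 8 lower (13.1% and 12.5%), and in Synpo-/- ECL 6 were higher and 3 lower (7.37% and 6.24%).

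Granule cell markers were higher in DG in every set (6, 6, 6 and 5 of 6 called) and CA3 pyramidal markers were lower (3, 0, 5 and 5 of 6). Microglia markers did not move alike, with 0 higher in both control sets, 2 of 10 lower in Synpo-/- control, and 1 and 6 of 10 higher after lesion, and oligodendrocyte markers were lower in DG for 4, 0, 7 and 1 of 7. Neuron markers were lower in DG for 1, 1, 1 and 2 of 6 and higher for 0, with medians of -0.26, -0.32, -0.22 and -0.33 on the log2 scale. Their part in the values of the members was not tested.

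Stxbp6, amisyn, lies at chr12:44852484-45074709 on the minus strand. In WT control it had 101.8, 121.8, 126.9 and 98.87 CPM in DG and 30.75 and 30.65 CPM in CA3. Each DG library exceeded both CA3 libraries, at a log2 fold change of 1.89 (SE 0.161, adjusted p = 1.27e-05). In Synpo-/- control DG ranged from 123 to 159.7 CPM (median 141.4) and CA3 from 26.17 to 55.83 CPM (median 35.14), again without overlap (2.00, SE 0.137, adjusted p = 4.10e-09).

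After lesion the Synpo-/- DG libraries had 155.1, 137.4, 111.9 and 112.2 CPM of Stxbp6, and the CA3 libraries 29.06 to 42.21 CPM (median 32.27). The difference was 1.98 (SE 0.126, adjusted p = 3.48e-07). In WT ECL 6 of the 7 DG libraries had 94.97 to 142 CPM, replicate 5 had 29.65 CPM and the CA3 libraries had 33.46, 30.66 and 29.87 CPM. The difference was 1.87 with it (SE 0.364, adjusted p = 0.0301) and 2.00 without it (adjusted p = 6.43e-08). With DG replicate 5 kept, the call was lost without any one of the 3 CA3 libraries. Those fits called 0 members, beside 0.00388%, 0.00391% and 0% of all genes without CA3 replicate 1, 2 and 3, so the loss is not particular to Stxbp6.

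Snap25 lies at chr2:136713453-136782428. It had 1834, 1509, 2404 and 2214 CPM in WT control DG and 3285 and 3989 CPM in CA3, with all DG values below both CA3 values (-0.85, SE 0.180, adjusted p = 0.0112, and -0.72, adjusted p = 0.131 without CA3 replicate 2). In Synpo-/- control it ranged from 1500 to 3074 CPM (median 2119) in DG and from 3658 to 5952 CPM (median 4689) in CA3, without overlap (-0.96, SE 0.140, adjusted p = 3.88e-05). In Synpo-/- ECL DG had 1239, 1961, 2169 and 2436 CPM and CA3 4267 to 5194 CPM apart from replicate 6 at 1987 CPM, giving a log2 fold change of -1.11 (SE 0.239, adjusted p = 0.00548) with that library and -1.27 (adjusted p = 6.24e-05) without it. In WT ECL the difference was -0.79 (adjusted p = 0.169), and without DG replicate 5, whose Snap25 level was 5686 CPM, it was -1.13 (adjusted p = 5.08e-05).

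Without DG replicate 5, 14 members were called between the regions in WT ECL (2 higher and 12 lower in DG), where 19.8% of all genes were called. Stx1a (-1.35, adjusted p = 9.06e-06) and Vamp2 (-0.46, adjusted p = 0.0181) were among them. Without CA3 replicate 6, 16 members were called in Synpo-/- ECL (5 higher and 11 lower), Stx1a (-0.98, adjusted p = 0.00155) among them, beside 22.1% of all genes. The count was 5 without DG replicate 3 or 4 (9.66% and 10.9% of all genes) and 6 without DG replicate 1 (8.95%). In Synpo-/- control 13 members were called without CA3 replicate 1 (21.7% of all genes).

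Stx1a, the syntaxin of the release site, ranged from 7.961 to 15.81 CPM (median 10.83) in Synpo-/- control DG and from 20.19 to 26.29 CPM (median 21.82) in CA3. The groups did not overlap (-0.95, SE 0.123, adjusted p = 1.03e-05), nor did they in Synpo-/- ECL (8.322 to 12.46 CPM against 12.76 to 25.96 CPM, -0.87, SE 0.193, adjusted p = 0.00684). Vamp1 was at 21.09 to 27.1 CPM in WT control DG and 32.4 and 44.06 CPM in CA3 (-0.65, SE 0.161, adjusted p = 0.0287), and fell by 0.60 (SE 0.091, adjusted p = 5.92e-05) and 0.78 (SE 0.138, adjusted p = 0.00134) in the Synpo-/- sets. The WT control call of Vamp1 held in 7 of 13 fits. It was lost without CA3 replicate 2 (-0.43, adjusted p = 0.409) or DG replicate 1, 3 or 4 and with all groups in one fit.

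Vamp2 was not called between regions in any set with all libraries kept. Its log2 fold changes were -0.12 (adjusted p = 0.769) in WT control, -0.33 (adjusted p = 0.2999) in WT ECL, -0.12 (adjusted p = 0.619) in Synpo-/- control and -0.27 (adjusted p = 0.160) in Synpo-/- ECL, and the groups overlapped in each set.

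Among the other calls in Synpo-/- control, Snap47 (-0.57, SE 0.103, adjusted p = 0.000383), Stx18, Ykt6 and Stxbp5l were lower in DG. Higher in DG were Vamp9, a little-studied member of the family (1.15, SE 0.174, adjusted p = 6.08e-05), Stx19 (0.79, SE 0.194, adjusted p = 0.00479), Stx11 (1.46, SE 0.388, adjusted p = 0.00857), Stx6 and Stxbp2. Vamp9, Stx19 and Stx11 stood at no more than 6.092 CPM in either region. In Synpo-/- ECL Vamp8 (0.65, SE 0.141, adjusted p = 0.00551), Stx6 (0.34, SE 0.0931, adjusted p = 0.0226), Stx5a (0.40, SE 0.119, adjusted p = 0.0356), Vamp5 and Stxbp2 were higher in DG. Of these, Stx6 held in 3 of 8 and 8 of 12 fits in the control and ECL sets, Stxbp2 in 3 of 7 and 4 of 11, and in the ECL set Stx5a in 5 of 12 and Vamp5 in 2 of 11. Leaving out any one of DG replicates 1 to 4 removed the ECL calls of Vamp5 and Stxbp2, leaving out DG replicate 1, 3 or 4 those of Stx6 and Stx5a, and leaving out CA3 replicate 6 those of Vamp5 and Stxbp2.

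**Figure D3:**
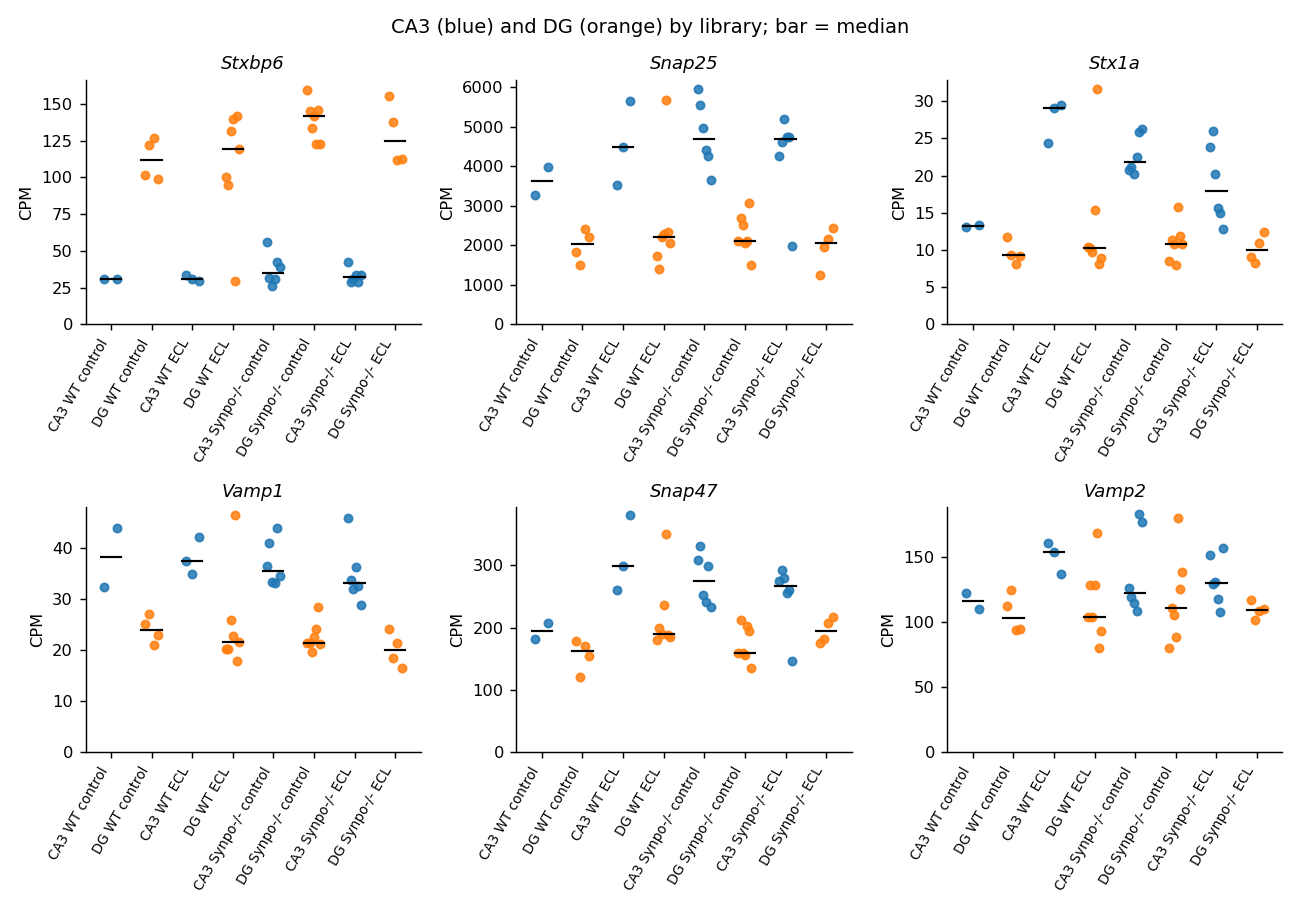
CPM of Stxbp6, Snap25, Stx1a, Vamp1, Snap47 and Vamp2 in each regional library (points) by region, genotype and lesion state, with bars at group medians. Stxbp6 is at 94.97 to 159.7 CPM in DG apart from 1 library at 29.65 CPM and at 26.17 to 55.83 CPM in CA3, and Snap25 has the opposite order apart from 1 DG library at 5686 CPM and 1 CA3 library at 1987 CPM.

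The lesion was compared with control in 5 sets that share no library. In WT DG 8 members rose and 1 fell (7.86% and 4.31% of all genes), in WT CA3 3 rose and 0 fell (1.50% and 0.273%) and in Synpo-/- DG 2 rose and 0 fell (5.17% and 3.36%). In the WT inputs 4 of 42 rose and 1 fell (2.45% and 3.16%). In Synpo-/- CA3 0 members were called by edgeR (0.0530% of all genes were higher and 0.0241% lower), 2 (4.65%) had an unadjusted p under 0.05 beside 7.27% of all genes, and DESeq2 called 0. The members' median was 0.28 in WT DG and 0.27 in WT CA3, beside -0.003 and -0.01 for all genes, and it was -0.01, -0.01 and -0.05 in Synpo-/- DG, the WT inputs and Synpo-/- CA3.

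Counts in WT changed when single libraries were left out and when the length trend was removed. Removing that trend left 2 members called in WT DG and 0 in WT CA3. Shares of all genes called in those fits are not given, so a loss particular to the members cannot be read from these counts. With the trend removed, the member medians were 0.11 and 0.08 where all genes had -0.14 in both. The members' median thus stayed 0.26 and 0.23 above that of all genes, and a part of gene length in the calls was not tested.

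Vamp8, an R-SNARE of late endosomes and of secretion in blood and epithelial cells, rose in 3 of the 5 sets. It lies at chr6:72385223-72390703. In WT DG it had 31.49, 21.45, 30.66 and 30.24 CPM in control and 52.33 to 65.96 CPM (median 56.55) after lesion, without overlap (0.99, SE 0.120, adjusted p = 0.000224). In Synpo-/- DG it rose from 31.9 to 43.21 CPM (median 38.51) to 66.69, 83.77, 58.96 and 65.74 CPM (0.80, SE 0.107, adjusted p = 0.000274).

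The WT inputs had 52.93, 47.29, 50.01, 56.21 and 41.63 CPM of Vamp8 in control and 58.43, 63.23, 64.92, 61 and 68.62 CPM after lesion. The groups did not overlap, with a change of 0.34 (SE 0.0905, adjusted p = 0.0405). In WT CA3 the values were 19.19 and 31.48 CPM in control and 45.49, 43.6 and 52.41 CPM after lesion, a rise in every library that was not called, and in Synpo-/- CA3 the groups overlapped (32.76 to 48.5 and 29.73 to 54.41 CPM). The calls in both DG sets passed under each of the 12 and 11 fits made, and that in the inputs under 8 of 17.

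Vamp5, whose gene lies 4754 bases from Vamp8 on the same strand and which is known from muscle and blood vessels, rose with it in DG. It had 5.745, 4.507, 5.472 and 5.383 CPM in WT control and 6.775 to 9.236 CPM (median 9.015) after lesion (0.64, SE 0.140, adjusted p = 0.0115), and in Synpo-/- it rose from 5.203 to 7.85 CPM (median 6.595) to 12.28, 8.534, 9.355 and 9.623 CPM (0.59, SE 0.142, adjusted p = 0.0155). Neither DG set overlapped, and the WT call was lost with the length trend removed (adjusted p = 0.0632). The Synpo-/- call was lost without ECL replicate 1 (0.48, adjusted p = 0.0764).

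Microglia markers rose in the same libraries. Their summed level was 441.2 to 605.2 CPM in WT DG control and 1121 to 1450 CPM after lesion, with 10 of 10 markers called, and 523.2 to 1150 CPM against 1144 to 1588 CPM in Synpo-/- DG, with 8 of 10. It was 870.4 to 1413 CPM against 1231 to 2026 CPM in the WT inputs (4 of 10 called), 471.3 to 799.6 CPM against 983.4 to 1316 CPM in WT CA3 (1 of 10) and 671.4 to 1467 CPM against 630.9 to 1098 CPM in Synpo-/- CA3 (0 of 10). Astrocyte markers rose for 5 and 6 of 7 in WT and Synpo-/- DG, and neuron markers fell for 3 of 6 in the inputs. Of 5 endothelial markers 0 rose and 1 fell in WT DG (median log2 fold change -0.47), and 0 were called in Synpo-/- DG (median 0.17). The part of these cell types in the rise of Vamp8, Vamp5 and the other members was not tested.

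The other members that rose in WT DG serve general trafficking. Stx2 rose by 0.59 (SE 0.146, adjusted p = 0.0201), Vamp3, the synaptobrevin of recycling endosomes, by 0.61 (SE 0.160, adjusted p = 0.0258), and Snap23, the widely expressed relative of Snap25, by 0.40 (SE 0.111, adjusted p = 0.0328). Sec22a, Stx5a and Stxbp3 rose as well, and Stx19 fell by 0.79 (SE 0.228, adjusted p = 0.0366), from 4.01 to 4.987 CPM to 1.465 to 3.842 CPM. The calls held in 9 of 12 fits for Vamp3, 8 of 12 for Sec22a, 7 of 12 for Snap23 and 7 of 11 for Stx2. They held in 6 of 11 for Stx19, 5 of 12 for Stx5a and 4 of 12 for Stxbp3. Without ECL replicate 5 there were 9 calls, and without control replicate 1, 2, 3 or 4 there were 6, 2, 3 and 2. Shares of all genes called in the same fits are not given, so a loss particular to the members cannot be read from these counts.

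In the inputs Stx2 (0.48, SE 0.119, adjusted p = 0.0305), Snap23 (0.41, SE 0.109, adjusted p = 0.0397) and Stxbp3 (0.33, SE 0.0902, adjusted p = 0.0491) rose again. All lesioned inputs lay above all control inputs for each of them. The number called in the inputs fell to 0 without ECL replicate 3 or control replicate 2. It fell to 1 without ECL replicate 2, 4 or 5 or control replicate 4, and to 2 without control replicate 1 or 3. Here too the shares of all genes called in the same fits are not given.

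Snap25 and Vamp2 were not called after lesion in DG or in the inputs. Snap25 had 0.31 (SE 0.290, adjusted p = 0.466) in WT DG and -0.03 (adjusted p = 0.908) without replicate 5, and -0.16 (SE 0.0865, adjusted p = 0.352) in the inputs. Vamp2 was at 0.09 (SE 0.159, adjusted p = 0.723) in WT DG and -0.27 (SE 0.0809, adjusted p = 0.0667) in the inputs.

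In WT CA3 Stx1a had 13.14 and 13.35 CPM in control and 24.38, 29.03 and 29.44 CPM after lesion. The groups did not overlap (0.96, SE 0.147, adjusted p = 0.027), but the call was lost without CA3 control replicate 1 or ECL replicate 1 or 2, with all groups in one fit and with the length trend removed. Ykt6, a SNARE without a membrane-spanning segment, went from 42.38 and 40.64 CPM to 66.91, 63.02 and 72.06 CPM (0.59, SE 0.121, adjusted p = 0.0428), a call that leaving out any of the 5 libraries removed. Snap25 had 0.22 (SE 0.175, adjusted p = 0.474) and Vamp2 0.27 (SE 0.130, adjusted p = 0.241).

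**Figure D4:**
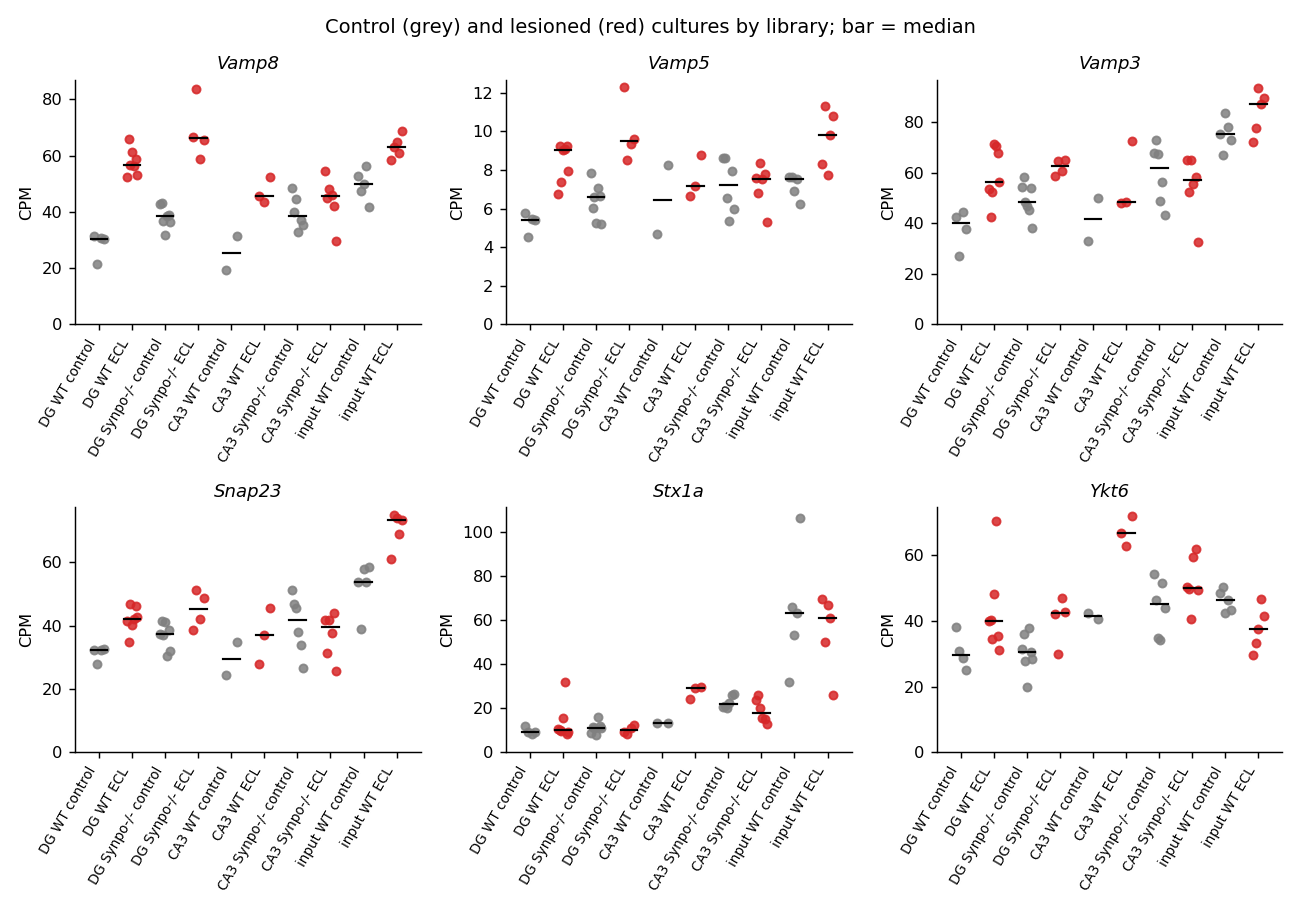
CPM of Vamp8, Vamp5, Vamp3, Snap23, Stx1a and Ykt6 in control and ECL libraries (points, with bars at group medians) of each regional group and of the WT inputs. Vamp8 is at 52.33 to 83.77 CPM in the lesioned DG libraries of both genotypes and at 21.45 to 43.21 CPM in their controls.

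Vti1b, a SNARE of late endosomes and lysosomes at chr12:79156017-79172667, moved in opposite directions in the 2 experiments. In WT CA3 it had 136.8 and 122.8 CPM in control and 248.8, 243.4 and 325.2 CPM after lesion. All lesioned libraries were above both controls (0.96, SE 0.146, adjusted p = 0.027). In the WT inputs it had 297.6, 272.8, 223.5, 211.9 and 159.5 CPM in control and 43.86, 35.27, 46.92, 108.6 and 186.5 CPM after lesion, lower in 4 of 5 libraries than every control (-1.47, SE 0.384, adjusted p = 0.0394).

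The rise of Vti1b in CA3 was not called with all groups in one fit (adjusted p = 0.274), with the length trend removed (adjusted p = 0.0539), or without ECL replicate 1 (adjusted p = 0.0596) or 2 (adjusted p = 0.0905). The fall in the inputs was 2.00 on the log2 scale without ECL replicate 5 (adjusted p = 0.00147), and it was not called without any one of ECL replicates 1 to 4 or control replicates 1 to 4 (adjusted p from 0.0505 to 0.104) or with all groups in one fit (adjusted p = 0.0727). In the other regional sets the change was not called, at 0.62 (adjusted p = 0.208) in WT DG, 0.52 (adjusted p = 0.466) in Synpo-/- DG and 0.42 (adjusted p = 0.803) in Synpo-/- CA3.

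Within groups Vti1b varied more than any other member in both experiments. On the log2(CPM + 1) scale, here with CPM per plain library total and no TMM factor, its pooled SD was 0.652 over the regional groups and 0.784 over the Synpo-coIP groups, at percentiles 99.3 and 99.7 of all genes above 5 CPM, where the median gene had 0.197 and 0.198. Synpo-/- CA3 controls alone ranged from 76.18 to 248.1 CPM (median 146.3). In coIP it was called lower than in the input in WT control (-0.89, adjusted p = 0.0026) and in Synpo-/- (-0.78, adjusted p = 0.00249), both calls lost with all groups in one fit, and not in WT ECL (-0.71, adjusted p = 0.287), where the coIP libraries had 40.35, 11.44, 28.41, 45.48 and 132.2 CPM.

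**Figure D5:**
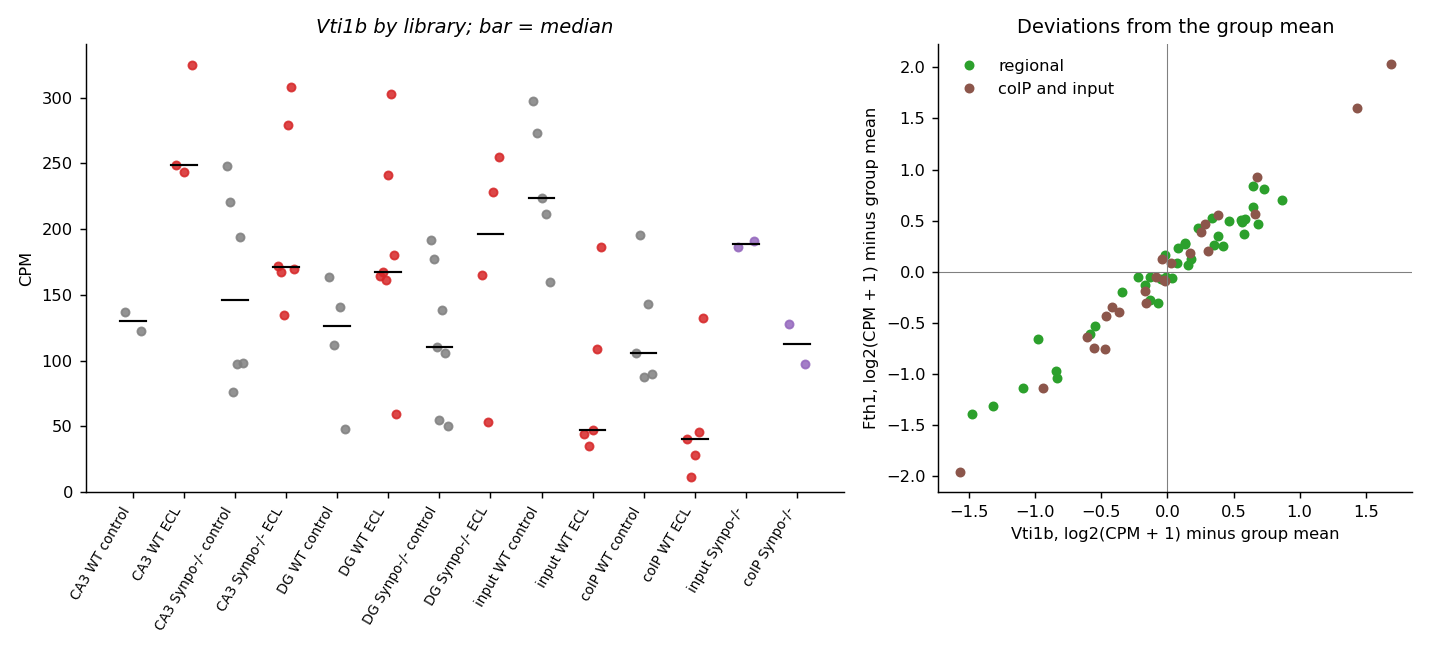
Left, CPM of Vti1b by group (points are libraries, bars are medians), and right, the deviations of Vti1b and of the ferritin gene Fth1 from their group means on the log2(CPM + 1) scale in each library, with TMM-scaled CPM on the left and CPM per plain library total on the right. WT CA3 rises from 122.8 and 136.8 CPM to 243.4 to 325.2 CPM, and the WT inputs go from 159.5 to 297.6 CPM to 35.27 to 186.5 CPM.

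Between genotypes (Synpo-/- minus WT) no member was called in any of 4 sets with the main edgeR settings. In CA3 control edgeR did call members without a filter on low counts and with the replicate block. The block also gave calls in CA3 ECL, and the counts are given below. In CA3 control 0 members were called (0.00413% of all genes), and 17 of 43 (39.5%) had an unadjusted p under 0.05, beside 16.4% of all genes. DESeq2 called 8 members and 834 genes in all. The members had a median of 0.20 beside -0.02 for all genes. Stx1a came closest there, with 20.19 to 26.29 CPM (median 21.82) in Synpo-/- against 13.14 and 13.35 CPM in WT (0.72, SE 0.151, adjusted p = 0.0895), and the groups did not overlap. The same 2 WT control libraries were the baseline of the lesion change in WT CA3. They also enter the interaction of genotype with lesion in CA3, so these results are not independent of each other. DG control called 0 members (0.0166% of all genes, and 0 members by DESeq2), with 8 members (18.6%) at an unadjusted p under 0.05 beside 15.5% of all genes, and Vamp8 had the smallest p (0.40, SE 0.117, adjusted p = 0.215). CA3 ECL called 0 members in edgeR and DESeq2 (0.00891% of all genes in edgeR), with 2 unadjusted (4.65%, beside 6.16% of all genes). DG ECL called 0 in both as well (0.0166%), with 0 unadjusted beside 3.56% of all genes.

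The interaction of genotype with lesion in CA3 called 0 members (0% of all 26821 genes). At an unadjusted p under 0.05 there were 11 members (25.6%) beside 17.1% of all genes, and DESeq2 called 1 member and 383 genes in all. Its smallest p among members was that of Stx1a, whose lesion change was 0.96 in WT and -0.27 in Synpo-/- CA3. The difference was -1.25 (SE 0.270, adjusted p = 0.111), and -1.16 (adjusted p = 0.0606) without Synpo-/- CA3 ECL replicate 6. DESeq2 called it (adjusted p = 0.00826). In DG the interaction called 0 members (0.00381% of all genes, and 0 members by DESeq2), with 3 unadjusted (6.98%, beside 10.4% of all genes).

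The other genes of fusion, from lists, moved partly with the members. Of 4 genes that take SNARE bundles apart, the adaptors Napa, Napg and Napb were lower in coIP in all 3 sets (Napa -0.86, adjusted p = 1.69e-06 in WT control). All 4 with Nsf were lower in DG in Synpo-/- control (Napg -0.44, adjusted p = 0.000205), where 12.5% of all genes were lower. Of the genes for vesicle priming and calcium sensing 10 of 23 tested were higher and 3 lower in coIP of WT control. There 29.6% of all genes were higher and 25.5% lower. Syt7 (0.83, adjusted p = 3.38e-06) and the priming factor Unc13a (0.99, adjusted p = 5.40e-06) were higher, while complexin Cplx1 was lower (-1.01, adjusted p = 6.80e-06).

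Of 28 tethering genes 14 were higher and 1 lower in coIP of WT control, 9 and 2 in WT ECL and 4 and 2 in Synpo-/-. The exocyst subunit Exoc4 led in WT control (0.56, adjusted p = 3.34e-05). In the 3 sets 29.6%, 30.5% and 15% of all genes were higher and 25.5%, 27.8% and 16.4% lower. The tethering genes higher in WT ECL and Synpo-/- were near those shares. Of 7 SNARE and Sec1/Munc18 genes outside the symbol families 2, 3 and 2 were lower in coIP in the 3 sets and 1, 0 and 0 higher, and Use1, a SNARE of the endoplasmic reticulum, was lower in each. After lesion 1 of these 7, 2 of 28 tethering genes and 0 of 4 disassembly genes rose in WT DG, beside 7.86% of all genes. Unc13c, a priming factor, fell there and in both Synpo-/- regions and the inputs.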

How the data were processed

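The deposited values are raw counts per gene. The authors trimmed reads with cutadapt 3.5, aligned them to mm10 with STAR 2.7.8a, required over 60% unique mapping and counted exon reads without strand in featureCounts 2.0.1 (GENCODE annotation, GRCm38). Counts carry no molecular identifiers, and precision was taken from replicates. Samples were grouped by their labels.

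Each comparison was fitted in edgeR 4.0.16 (R 4.3.3, limma 3.58.1) on all genes passing filterByExpr, with TMM scaling and the quasi-likelihood test. Benjamini-Hochberg adjustment ran over all genes tested, and the SE is the log2 fold change divided by the root of F. Alternatives were DESeq2 1.42.0, RLE factors, no filter, removal of length or length and GC trends, all groups in one fit, a mean count over 300, the replicate block, and each library left out in groups of up to 5, with the 3 libraries that stood apart (2 of them chosen after seeing the data). Fits were tested on simulated data.

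All members could be named, with full statistics for Vti1b, Snap25, Stx1a, Vamp2 and up to 4 called members per direction, and up to 3 genes per list. Some members are counted but not reported here by name. Members, lists and tests were chosen with earlier results of these data known. CoIP and input of a number share a lysate, and their deviations from group means correlated at 0.31 to 0.668 in WT control, 0.131 to 0.707 in WT ECL and 0.107 in Synpo-/-. Synpo-/- pairs follow the number in the sample name, which is crossed with the replicate number in the titles of the inputs. With 2 libraries per group both Synpo-/- pairs give the same correlation by construction, so 0.107 is a single value.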

Additional observations from a re-analysis of the deposited data

Results flagged for a closer look

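A value is given here where the highest or lowest library of a group stood apart from the others by Dixon's test. Over all members 38 of 430 group tests (8.84%) did so, where chance gives about 1 in 20, and 8 of them were in WT DG ECL replicate 5 and 5 in Synpo-/- CA3 ECL replicate 6.

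In WT DG ECL replicate 5, the library with the Prox1 level of CA3, the members summed to 9069 CPM (the nearest other library had 5181 CPM). Snap25 stood at 5686 CPM there (nearest 2331), Stx1a at 31.7 CPM (nearest 15.39) and Stxbp6 at 29.65 CPM (nearest 94.97), beside 3524 to 5644, 24.38 to 29.44 and 29.87 to 33.46 CPM in the lesioned WT CA3 libraries.

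In Synpo-/- CA3 ECL replicate 6 the members summed to 4042 CPM (nearest 7146) and Snap25 was at 1987 CPM (nearest 4267).

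Single values stood apart in other libraries. Vamp8 was low in WT DG control replicate 2 (21.45 CPM, nearest 30.24). Stxbp6 was high in Synpo-/- CA3 ECL replicate 1 (42.21 CPM, nearest 33.58) and low in WT control input replicate 5 (32.87 CPM, nearest 39.4). Vti1b was high in WT ECL coIP replicate 5 (132.2 CPM, nearest 45.48), whose input was also the highest of its group.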

How the results depend on the processing

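Among the counts of members called with all libraries kept, 117 stayed within 1.5 times the main count and 25 did not. With DESeq2 the count was 9 for lesion in WT CA3, 4 in Synpo-/- DG and 9 in the inputs, 2 for region in WT ECL, 8 for genotype in CA3 control and 1 for genotype by lesion in CA3. Without a filter on low counts it was 10 for lesion in WT CA3, 2 for region in WT ECL, 4 for genotype in CA3 control and 1 for genotype by lesion in CA3. With all groups in one fit it was 0 for lesion in WT CA3 and in the inputs, 1 for region in WT control and 5 in WT ECL. Removing the length trend gave 0, 2 and 5 for lesion in WT CA3, WT DG and Synpo-/- DG and 2 for region in WT ECL, and in coIP it turned Stxbp5 to -0.0591 in WT control and -0.00201 in WT ECL and Stx6 to -0.117 in WT ECL. A mean count over 300 left 1 for lesion in Synpo-/- DG. In the comparisons named for DESeq2, it called 1457, 2627, 1676, 1360, 834 and 383 of all genes. There edgeR called 397, 1989, 1007, 492, 1 and 0. For the other settings the shares of all genes are not given, so a change particular to the members cannot be read from these counts.

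Leaving out 1 library gave 0 to 6 calls for lesion in WT CA3, 2 to 9 in WT DG, 2 to 4 in Synpo-/- DG and 0 to 6 in the inputs. It gave 1 to 3 for region in WT control, 0 to 14 in WT ECL and 5 to 16 in Synpo-/- ECL, 13 in Synpo-/- control, and 29 to 31, 27 to 30 and 17 to 23 for coIP in WT control, WT ECL and Synpo-/-. Where an arm kept 1 library, it was assumed to vary like the other group. For lesion and coIP these counts stand without the share of all genes called in the same fits. All genotype comparisons and interactions, and lesion in Synpo-/- CA3, stayed at 0.

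With the replicate block, coIP called 31, 32 and 26 members, and no count moved by over 1.5 times. In the other comparisons the labels give no link beyond a number, and the correlation of same-numbered deviations ran from -0.441 to 0.506. For region in Synpo-/- control it ran from 0.0623 to 0.471, and 4 of 6 DG libraries correlated best with the CA3 library of their number. In WT control, WT ECL and Synpo-/- ECL 0 of 2, 1 of 3 and 1 of 4 did so. Whether same-numbered DG and CA3 libraries came from one culture is not stated. The block gave 7 for lesion in WT CA3, 1 in Synpo-/- DG and 1 in the inputs. It gave 18 for region in WT ECL, 12 for genotype in CA3 control and 2 in CA3 ECL. The counts with the block stand without the share of all genes, so they do not show a change particular to the members. With the block, Vamp1 in WT control (region) had an adjusted p of 0.539 and Vamp5 in Synpo-/- DG (lesion) 0.0784. Over named members and alternatives, 2974 values kept their side of the threshold and direction, 223 lost a call, 49 gained one and 3 turned. Precision is limited by 2 WT CA3 controls and 2 Synpo-/- coIP replicates, and by members at a few CPM.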

Other observations

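Genes whose levels moved with Vti1b from library to library were looked for after its spread had been seen, and the values are descriptions without a test. Deviations from group means (log2(CPM + 1), with CPM per plain library total and no TMM factor) were correlated with those of Vti1b over 38 regional libraries (WT DG ECL replicate 5 left out) and, separately, over the 24 Synpo-coIP libraries, which share depth and preparation within each experiment. Of the 50 genes with the highest correlation in each experiment 26 were in both (52% of each list). Fth1, the ferritin heavy chain that stores iron, had r of 0.972 and 0.991. Guk1, a guanylate kinase (0.979 and 0.967), Cisd1, an outer mitochondrial membrane protein (0.983 and 0.966), Mpc2, a subunit of the mitochondrial pyruvate carrier (0.961 and 0.986), Dtd2 (0.967 and 0.969) and Chchd2 (0.963 and 0.967) came close to it.

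The median exon length of these 50 genes was 2486 bases in the regional and 2232.5 bases in the Synpo-coIP experiment, where that of all genes above the same level was 4760 and 4786.5 bases. On CPM per plain library total, Fth1 went from 1949 and 2877 CPM in WT CA3 control to 4333 to 4955 CPM after lesion (1.06, adjusted p = 0.027), and from 1572 to 2786 CPM to 290.7 to 1950 CPM in the WT inputs (-1.38, adjusted p = 0.082), the directions of Vti1b in both. No other member had a correlation with Vti1b over 0.9, the highest being Ykt6 with 0.774 and 0.724. Whether exon length or preparation plays a part in these values was not tested.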
